A study of Mus musculus with 6 samples.

Results

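The genes described here are 36 genes expressed by Kupffer cells and other macrophages, taken by their symbols from the 54446 genes counted by RNA-seq in mouse liver. They were grouped by role into 8 genes of resident Kupffer cells, 10 core genes of phagocytes, 5 Fc receptors and adaptors, 3 subunits of the phagocyte NADPH oxidase, 6 genes of recruited or activated macrophages and 4 genes of lipid-associated macrophages. The transcriptome was measured in whole liver of 3 wild-type (WT) and 3 *Fmo5*-/- mice, with 1 library of single reads per mouse. All 6 were male C57BL/6J mice of 32 weeks of age, fed standard chow and kept in adjacent cages, and their livers were collected in the morning and frozen. The *Fmo5*-/- mice carry a constitutive disruption of *Fmo5*, encoding flavin-containing monooxygenase 5, in every tissue, so that no cell type was targeted. The mice were numbered 1 to 3 within each genotype, and the numbers neither pair nor order them.

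Kupffer cells are the resident macrophages of the liver. They lie in the sinusoids, where they clear bacteria, aged red cells and immune complexes from portal blood, and they depend on the growth factor CSF1 and on signals from neighbouring endothelial and stellate cells. When the liver is injured or Kupffer cells are lost, monocytes enter from the blood and become macrophages, and in lipid-laden liver some macrophages take on a state marked by *Trem2*, *Gpnmb* and *Spp1*.

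Each library held between 44886286 and 52338675 counts on genes. *Fmo5*, the disrupted gene, had 39808, 37405 and 30239.7 normalized counts in WT mice and 1071, 1102 and 1194 in *Fmo5*-/- mice, and the mean in *Fmo5*-/- liver was 0.0313 times that in WT liver. The edgeR quasi-likelihood test gave this fall a Benjamini-Hochberg adjusted p of 2.79e-07. A normalized count is the raw count scaled to a common library size. Unless another test or fit is named, tests below are this same edgeR test. Its p-values were adjusted over the 16734 genes that passed a filter on low counts. The defining Kupffer cell markers *Clec4f*, *Vsig4*, *Cd5l* and *Adgre1* were detected in all 6 livers.

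All 36 macrophage genes passed the filter, and the mean of each was higher in *Fmo5*-/- than in WT liver. The median log2 fold change of the 36 genes was 1.02, with a range from 0.02 for *Mrc1* to 2.24 for *Marco*, whereas the median over all genes tested was 0.0058. In 28 of the 36 genes all 3 *Fmo5*-/- mice lay above all 3 WT mice, a pattern that 13.9% of all genes tested showed, with 13.5% showing the opposite. The spread among the *Fmo5*-/- mice was wide, and only 2 of the 36 genes, *Clec4f* and *Lilrb4a*, passed an adjusted p of 0.05 in the edgeR test. Of all genes tested, 0.675% passed as higher and 0.693% as lower in *Fmo5*-/- liver. A further 19 of the macrophage genes had an adjusted p between 0.05 and 0.10. At an unadjusted p under 0.05, 31 of the 36 were higher, against 11.6% of all genes. The DESeq2 Wald test gave an adjusted p for 35 of the genes and called 29 of them higher and 0 lower, where it called 4.75% of all genes higher and 4.21% lower. In bulk liver, more macrophages and more of a transcript per macrophage cannot be told apart.

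**Figure D1:**
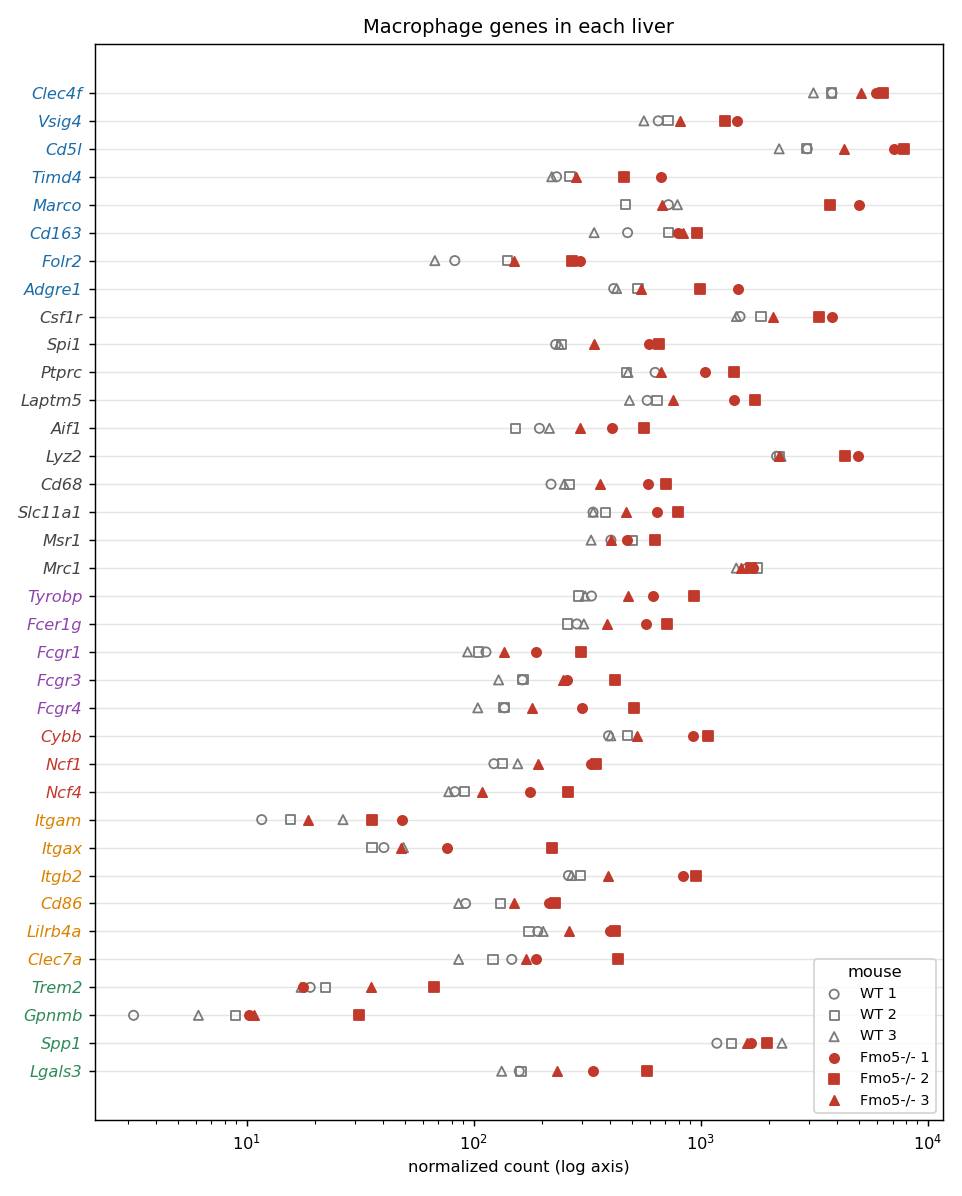
Normalized counts (log axis) of the 36 macrophage genes in each of the 3 WT (open grey symbols) and 3 *Fmo5*-/- livers (filled red symbols), with gene names coloured by role. Most red symbols lie to the right of the grey ones, and the triangle of the third *Fmo5*-/- mouse is the closest of the red symbols to the WT values for most genes.

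The *Fmo5*-/- mice differed from each other in the same way across most of the genes. *Fmo5*-/- mouse 2 had the highest value of the 3 for 27 genes and mouse 1 for 9, whereas mouse 3 had the lowest for 33. Mouse 1 lay above all WT mice for 32 of the 36 genes, mouse 2 for 34 and mouse 3 for 29. No share over all genes is given for single mice, so these counts describe the 36 genes only. The calls depended on mouse 3, among these genes and over all genes. When this library was left out, 27 of the 36 genes passed the adjusted p of 0.05 in the edgeR test. In that fit 606 of all 17130 genes passed as higher and 157 as lower, against 113 and 116 of 16734 with all mice. When WT mouse 1 or *Fmo5*-/- mouse 1 was left out, 0 of the 36 passed (25 and 30, respectively, at an unadjusted p under 0.05). Over all genes, 27 of 17224 passed as higher and 35 as lower without WT mouse 1. Without *Fmo5*-/- mouse 1 these were 16 and 15 of 17043. DESeq2 was not run without single libraries.

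Markers of some other leukocytes also had a higher mean in *Fmo5*-/- liver, and 1 of them, *Csf3r* of neutrophils, passed the edgeR test. All 11 markers of T and NK cells had a higher mean (median log2 fold change 1.48), and their summed normalized count ranged from 237 to 375 in WT and from 469 to 1530.1 in *Fmo5*-/- mice. Of these, *Ncr1* and *Klrb1c* had few reads, with means of 7.94 and 12.1 counts over the 6 livers. Both overlapped between the genotypes, as did *Cd4* (log2 fold changes 0.68, 0.62 and 0.30). All 5 tested of 8 neutrophil markers were also higher (median 1.25), with a summed level of 164 to 306 in WT and 356 to 683 in *Fmo5*-/- mice. *Ly6g*, which defines mouse neutrophils, had a single read in 1 *Fmo5*-/- liver and none in the other libraries. All 6 tested of 8 monocyte markers had a higher mean (median 0.74), and their sum was 308 to 398 in WT and 429 to 928 in *Fmo5*-/- mice. *Plac8*, the largest part of this sum, overlapped between the genotypes. All *Fmo5*-/- mice lay above all WT mice for 6 of 11 T and NK cell, 4 of 5 neutrophil and 2 of 6 monocyte markers tested. Of all genes tested, 13.9% did so. The part of these cells in the values of genes that they share with macrophages was not tested.

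Many macrophage genes are bound by PU.1, a transcription factor encoded by *Spi1*, itself one of the 36. RefSeq promoters, from 250 bases before to 50 bases after a start site (build GRCm38.p6), were found for 27 of the 36 genes. The PU.1 core GAGGAA, searched on both strands, was present in 17 of these 27 genes (63.0%), against 31.2% of all 27025 genes with such a promoter. The MAF half-site TGCTGA, searched likewise, was present in 29.6% of them and in 21.7% of all genes, and a MAF half-site may share its last letters GA with a PU.1 core. The site of the lysosomal regulator TFEB, GTCACGTG, whose last letters TG can begin a MAF half-site, was present in 0 of the 27 and in 2.55% of all genes. A match describes the letters of this window only, and no test was made.

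The 250 bases before the start site are shown for 5 of the genes, 5′ to 3′ in the direction of transcription, with each GAGGAA, or TTCCTC where it lies on the other strand, in capitals. *Vsig4*, *Marco* and *Cd5l* are the resident Kupffer cell genes in which a match was found, *Fcgr1* is one of the Fc receptor genes with a match, and *Mrc1* is the gene with the smallest difference between the genotypes. They were chosen because they hold a match, so that they do not stand for the other genes.
Vsig4 (chrX:96293439-96293688, minus strand): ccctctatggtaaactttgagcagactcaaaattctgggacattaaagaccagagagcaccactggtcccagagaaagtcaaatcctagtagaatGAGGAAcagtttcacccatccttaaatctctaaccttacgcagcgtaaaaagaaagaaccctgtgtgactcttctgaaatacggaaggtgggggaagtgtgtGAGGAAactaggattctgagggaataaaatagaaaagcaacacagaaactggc
Marco (chr1:120505025-120505274, minus strand): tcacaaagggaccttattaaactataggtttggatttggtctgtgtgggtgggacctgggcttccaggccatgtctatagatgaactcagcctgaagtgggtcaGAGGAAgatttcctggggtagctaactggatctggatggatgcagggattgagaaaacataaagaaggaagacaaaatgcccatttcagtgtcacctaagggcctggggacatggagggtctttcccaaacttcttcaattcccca
Cd5l (chr3:87357631-87357880, plus strand): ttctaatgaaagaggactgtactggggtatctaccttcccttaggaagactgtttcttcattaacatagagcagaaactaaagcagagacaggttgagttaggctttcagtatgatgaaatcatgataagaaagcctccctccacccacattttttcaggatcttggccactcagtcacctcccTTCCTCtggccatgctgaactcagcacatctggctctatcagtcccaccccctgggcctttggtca
Fcgr1 (chr3:96293970-96294219, minus strand): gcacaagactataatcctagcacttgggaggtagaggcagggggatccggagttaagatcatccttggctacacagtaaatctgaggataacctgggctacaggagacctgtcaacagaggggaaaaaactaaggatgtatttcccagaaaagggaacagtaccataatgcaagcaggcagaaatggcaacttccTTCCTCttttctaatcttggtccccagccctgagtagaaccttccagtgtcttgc
Mrc1 (chr2:14229164-14229413, plus strand): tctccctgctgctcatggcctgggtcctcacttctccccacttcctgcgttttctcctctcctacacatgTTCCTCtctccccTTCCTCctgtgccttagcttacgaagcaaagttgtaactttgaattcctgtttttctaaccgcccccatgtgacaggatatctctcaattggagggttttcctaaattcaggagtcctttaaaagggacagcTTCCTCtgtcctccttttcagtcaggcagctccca
Counted to the first base of the match, with the start site at 0, the matches lay at -155 and -53 in *Vsig4*, at -146 in *Marco*, at -66 in *Cd5l* and at -55 in *Fcgr1*. *Mrc1*, which hardly differed between the genotypes, had 3 matches, at -180, -167 and -35. The same stretch of *Clec4f*, which passed the test, had none, nor had those of *Timd4*, *Cd163* and *Folr2*.

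The 8 genes of resident Kupffer cells had a median log2 fold change of 1.05. Of these, 1 rose, 7 did not pass the adjusted p of 0.05, 8 had an unadjusted p under 0.05, and 7 were called higher by DESeq2. All 3 *Fmo5*-/- mice lay above all WT mice for 7 of the 8. *Clec4f* (chr6:83644542-83656187, minus strand), encoding a C-type lectin found on mouse Kupffer cells and on few other cells, had 3787, 3768 and 3139.9 normalized counts in WT mice and 5907, 6327 and 5085 in *Fmo5*-/- mice. All 3 *Fmo5*-/- mice lay above the highest WT mouse. Expression of *Clec4f* rose by 0.70 on the log2 scale (SE 0.11), with an adjusted p of 0.0275 in the edgeR test. It had the smallest fold change of the 8 and also the smallest error, and it passed the test in 2 of the 6 fits that each left out 1 mouse (adjusted p from 0.00845 to 0.102).

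*Cd5l*, encoding a secreted scavenger protein also known as AIM, had 2949, 2918 and 2217 counts in WT and 7129, 7884 and 4277 in *Fmo5*-/- mice. The groups did not overlap, and the log2 fold change was 1.25 (SE 0.24, edgeR adjusted p 0.0564). *Vsig4*, encoding the complement receptor CRIg, had 650.2, 719 and 562 counts in WT and 1449.5, 1282 and 814 in *Fmo5*-/- mice, with a log2 fold change of 0.88 (SE 0.21, edgeR adjusted p 0.0779). *Timd4*, encoding the phosphatidylserine receptor TIM-4 of long-lived Kupffer cells, had 232, 266 and 221 counts in WT and 671, 459 and 284 in *Fmo5*-/- mice. In both genes *Fmo5*-/- mouse 1 was the highest and mouse 3 lay just above the WT mice. *Adgre1*, encoding the macrophage antigen F4/80, showed the same order, with 414, 530.0 and 426 counts in WT and 1457, 995 and 546 in *Fmo5*-/- mice (log2 fold change 1.13, SE 0.36).

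*Marco* (chr1:120474538-120505024, minus strand), encoding a scavenger receptor that binds bacteria, had the largest log2 fold change of the 36 genes and the widest spread. It had 721, 468 and 790.3 counts in WT and 4989, 3710.0 and 676 in *Fmo5*-/- mice. Mice 1 and 2 were several times above every WT mouse, whereas mouse 3 lay within the WT range. The log2 fold change was 2.24 (95% confidence interval 0.12 to 4.37) and did not pass the edgeR test (adjusted p 0.212). In the 6 fits that each left out 1 mouse it ranged from 1.73 to 2.72, with edgeR adjusted p from 0.0046 to 0.451. Of these fits 1 passed, the one without *Fmo5*-/- mouse 3, with a log2 fold change of 2.72.

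*Cd163* and *Folr2* completed the resident genes. *Cd163*, encoding the receptor for haemoglobin bound to haptoglobin, had 477, 724 and 339 counts in WT and 798, 964 and 833 in *Fmo5*-/- mice. It was the only resident gene in which mouse 3 was not the lowest of the *Fmo5*-/- mice. *Folr2*, encoding folate receptor beta, had 82.6, 141 and 67.5 counts in WT and 294, 269.9 and 151 in *Fmo5*-/- mice (log2 fold change 1.30, SE 0.33, edgeR adjusted p 0.0818). Its exons share 63.1% of their bases with a gene on the opposite strand, and reads in shared bases are not counted when strand is ignored. With reads of 1 strand the log2 fold change was 1.13 (SE 0.22), and the edgeR adjusted p of 0.0483 passed.

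The 10 core phagocyte genes had a median log2 fold change of 0.96, and 0 passed the edgeR test at an adjusted p of 0.05. Of the 10, 8 had an unadjusted p under 0.05 and 8 were called by DESeq2, and 7 showed no overlap between the genotypes. *Spi1*, encoding PU.1, had 229.8, 244 and 238 counts in WT and 592, 655 and 339.7 in *Fmo5*-/- mice. The WT mice were nearly equal, the *Fmo5*-/- mice were all above them, and the log2 fold change was 1.16 (SE 0.22, edgeR adjusted p 0.0523). *Csf1r*, encoding the receptor through which CSF1 keeps macrophages alive, had 1491, 1845 and 1438 counts in WT and 3792, 3329 and 2092 in *Fmo5*-/- mice (log2 fold change 0.95, SE 0.22). *Cd68*, encoding a lysosomal glycoprotein of phagocytes, had 219, 264 and 250.5 counts in WT and 585, 704 and 360.3 in *Fmo5*-/- mice, again with no overlap and with mouse 3 the lowest of the *Fmo5*-/- mice. The log2 fold change of *Cd68* was 1.17 (SE 0.23, edgeR adjusted p 0.0545).

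*Aif1*, encoding the actin-binding protein IBA1, *Slc11a1*, encoding a metal transporter of the phagosome, *Laptm5*, encoding a lysosomal membrane protein of leukocytes, and *Ptprc*, encoding the leukocyte antigen CD45, also had no overlap between the genotypes. Their log2 fold changes were 1.17, 0.86, 1.19 and 0.98, respectively. *Ptprc* and *Laptm5* are expressed by all leukocytes, including the T and NK cells whose markers were higher. *Lyz2*, encoding lysozyme, had 2160.4, 2225 and 2259.6 counts in WT and 4913, 4329 and 2205 in *Fmo5*-/- mice. *Fmo5*-/- mice 1 and 2 were well above the narrow WT range and mouse 3 lay inside it. The near-identical *Lyz1* had a mean of 9.55 counts over the 6 livers.

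*Msr1* and *Mrc1* stood apart from the other 8 core genes. *Msr1*, encoding scavenger receptor A, had 402, 499.9 and 329 counts in WT and 474, 628 and 404 in *Fmo5*-/- mice, with a log2 fold change of 0.29 (95% confidence interval -0.15 to 0.74). *Mrc1* (chr2:14229392-14332057, plus strand), encoding the mannose receptor CD206, had 1602, 1775 and 1436 counts in WT and 1693, 1669 and 1502 in *Fmo5*-/- mice. The genotypes overlapped in both genes. The log2 fold change of *Mrc1* was 0.02 (95% confidence interval -0.20 to 0.23), which does not reach the values of the 8 core genes other than *Msr1*. Sinusoidal endothelial cells also express *Mrc1*, and their 12 markers had a median log2 fold change of -0.12, with 4 higher and 8 lower. The share of these cells in the *Mrc1* reads was not tested.

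**Figure D2:**
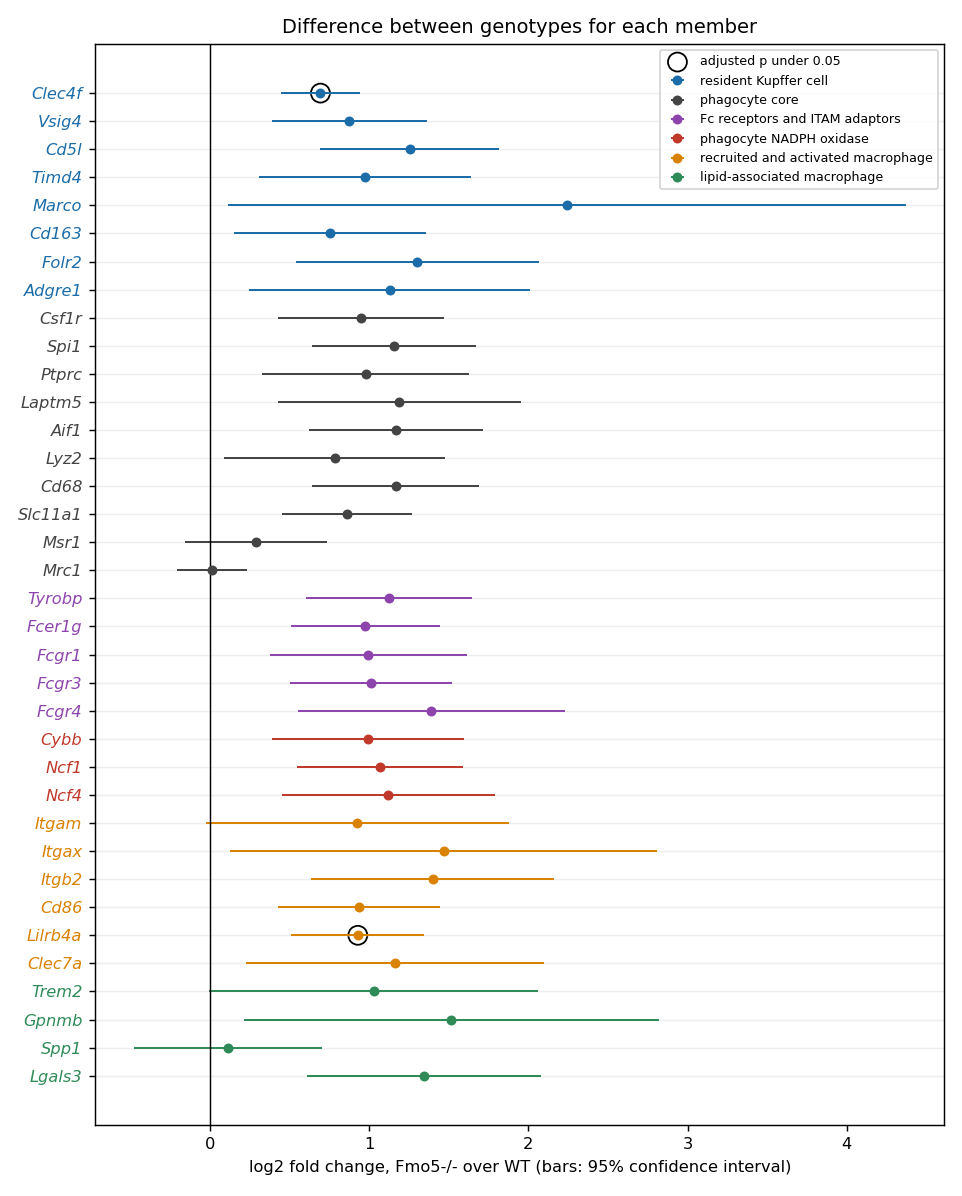
Log2 fold change, *Fmo5*-/- over WT, of the 36 macrophage genes with 95% confidence intervals from the edgeR fit, coloured by role, with rings around the 2 genes with an adjusted p under 0.05. All points lie at or above 0, *Mrc1*, *Msr1* and *Spp1* lie nearest to it, and the interval of *Marco* is the widest.

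The 5 genes of Fc receptors and ITAM adaptors had log2 fold changes from 0.98 to 1.39 (median 1.01). In the edgeR test 0 of the 5 passed an adjusted p of 0.05, with 5 at an unadjusted p under 0.05 and 5 called by DESeq2, and in all 5 the genotypes did not overlap. *Tyrobp*, encoding the adaptor DAP12, had 330.4, 289 and 309.8 counts in WT and 618, 931 and 480.1 in *Fmo5*-/- mice. *Fcer1g*, encoding the common gamma chain through which activating Fc receptors signal, had 285, 259 and 306 counts in WT and 573, 712 and 388 in *Fmo5*-/- mice. In both adaptors mouse 2 was the highest, mouse 1 followed and mouse 3 was the lowest of the *Fmo5*-/- mice. Their log2 fold changes were 1.13 (SE 0.23, edgeR adjusted p 0.0556) and 0.98 (SE 0.20, edgeR adjusted p 0.0562).

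The 3 activating Fc gamma receptors had the same order of mice. *Fcgr4*, encoding a receptor for IgG2, had the largest difference of the group, with 137, 136 and 104 counts in WT and 301, 507 and 181 in *Fmo5*-/- mice (log2 fold change 1.39, SE 0.36). *Fcgr1*, encoding the high-affinity receptor CD64, had 113, 105 and 94.1 counts in WT and 189, 298 and 135 in *Fmo5*-/- mice. *Fcgr3*, encoding the low-affinity receptor CD16, had 164, 165 and 129 counts in WT and 257, 419 and 247 in *Fmo5*-/- mice. For each of the 3 receptors the WT values lay closer together than the *Fmo5*-/- values.

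The 3 subunits of the phagocyte NADPH oxidase, the enzyme of the respiratory burst, had a median log2 fold change of 1.07 and did not overlap between the genotypes. *Cybb*, encoding its catalytic membrane subunit, had 393, 475 and 402 counts in WT and 923, 1081 and 523 in *Fmo5*-/- mice. *Ncf1*, encoding the organizing cytosolic subunit p47phox, had 123, 134 and 156 counts in WT and 329.8, 347 and 191 in *Fmo5*-/- mice. *Ncf4*, encoding p40phox, had 82.6, 91.5 and 77.7 counts in WT and 178, 261 and 109 in *Fmo5*-/- mice. All 3 had mouse 2 as the highest and mouse 3 as the lowest of the *Fmo5*-/- mice. In the edgeR test 0 of the 3 passed an adjusted p of 0.05, with 3 at an unadjusted p under 0.05 and 3 called by DESeq2. Neutrophils use the same oxidase, and the neutrophil receptor gene *Csf3r* rose by 1.25 on the log2 scale (SE 0.24, edgeR adjusted p 0.0468).

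The 6 genes of recruited and activated macrophages had a median log2 fold change of 1.05, and 1 of them rose. Of the 6, 5 had an unadjusted p under 0.05, 5 were called higher by DESeq2, and 4 showed no overlap between the genotypes. *Lilrb4a* (chr10:51490956-51496611, plus strand), encoding an inhibitory immunoglobulin-like receptor, had 192, 175 and 202 counts in WT and 399.6, 421 and 264 in *Fmo5*-/- mice. The groups did not overlap, and the gene rose by 0.93 on the log2 scale (SE 0.18), with an edgeR adjusted p of 0.04999 that lay at the threshold. It passed in 1 of the 6 fits that left out 1 mouse (adjusted p from 0.00524 to 0.139). Its exons share 35.9% of their bases with 2 other annotated genes.

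*Itgb2* and *Cd86* also showed no overlap. *Itgb2*, encoding the beta chain shared by the leukocyte integrins, had 262, 296 and 269.9 counts in WT and 837, 956 and 391 in *Fmo5*-/- mice (log2 fold change 1.40, SE 0.32). *Cd86*, encoding a costimulatory ligand for T cells, had 92.1, 132 and 85.9 counts in WT and 214, 228 and 150.2 in *Fmo5*-/- mice (log2 fold change 0.94, SE 0.23). Both were lowest in mouse 3 among the *Fmo5*-/- mice, as were the other genes of this group.

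The alpha chains that pair with *Itgb2* were less uniform. *Itgax*, encoding CD11c, had 40.2, 35.7 and 49.1 counts in WT and 76.4, 222 and 48.1 in *Fmo5*-/- mice. Its difference rested largely on mouse 2, without which the log2 fold change was 0.58, and mouse 3 lay within the WT range. *Itgam*, encoding CD11b, had 11.6, 15.6 and 26.6 counts in WT and 48.4, 35.8 and 18.7 in *Fmo5*-/- mice. The genotypes overlapped, and 68.7% of the exon bases of *Itgam* lie in another annotated gene on the same strand, and reads in the shared bases were not counted. *Clec7a*, encoding the beta-glucan receptor dectin-1, had 147, 122 and 85.9 counts in WT and 189, 434 and 169.8 in *Fmo5*-/- mice, with no overlap and with mouse 2 far above the rest.

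The 4 genes of lipid-associated macrophages were uneven. *Lgals3*, encoding galectin-3, had 159, 162 and 133 counts in WT and 336, 582 and 234 in *Fmo5*-/- mice, with no overlap and a log2 fold change of 1.35 (SE 0.32, edgeR adjusted p 0.0756). *Trem2*, encoding a lipid-sensing receptor that signals through the product of *Tyrobp*, had 19.1, 22.3 and 17.4 counts in WT and 17.7, 67.0 and 35.3 in *Fmo5*-/- mice. *Gpnmb*, encoding a lysosomal membrane glycoprotein, had 3, 8 and 6 raw reads in WT and 11, 34 and 11 in *Fmo5*-/- mice. Both were highest in mouse 2 and at low levels, and mouse 1 was within the WT range for *Trem2*. *Spp1* (chr5:104435118-104441050, plus strand), encoding osteopontin, had 1179, 1369 and 2281 counts in WT and 1663, 1964 and 1599 in *Fmo5*-/- mice. WT mouse 3 had the highest value of all 6, and the log2 fold change was 0.11 (95% confidence interval -0.48 to 0.70).

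Of these 4 genes 0 passed the edgeR test at an adjusted p of 0.05, with 2 at an unadjusted p under 0.05 and 1 of 3 called by DESeq2. The median log2 fold change of the 4 was 1.19, and it was 0.61 without *Fmo5*-/- mouse 2. Cholangiocytes also express *Spp1*. Their 7 markers had a median log2 fold change of 0.03, and their summed level was highest, at 2150.2, in WT mouse 3, where *Spp1* was highest too. The part of these cells in the *Spp1* reads was not tested.

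The groups were then compared within each mouse, by the mean over the genes of a group of log2(normalized count + 1), relative to the WT mean. In *Fmo5*-/- mice 1, 2 and 3 the resident genes were higher by 1.48, 1.31 and 0.45, and the genes of recruited and activated macrophages by 1.13, 1.57 and 0.41. By this mean, mouse 1 was the highest for the resident genes and mouse 2 for the recruited ones. The single genes were divided. Of the 8 resident genes, mouse 1 was the highest *Fmo5*-/- mouse for 5 and mouse 2 for 3, *Clec4f*, *Cd5l* and *Cd163*. Of the 6 recruited genes, mouse 2 was the highest for 5 and mouse 1 for 1. The Fc receptors and adaptors were higher by 0.98, 1.58 and 0.54, the oxidase subunits by 1.16, 1.44 and 0.39, and the core genes by 0.96, 1.15 and 0.32. The lipid-associated genes were higher by 0.47, 1.57 and 0.58. Markers of other leukocytes were also highest in mouse 2. On the same scale those of T and NK cells were higher by 1.33, 2.25 and 0.86 in *Fmo5*-/- mice 1, 2 and 3, those of neutrophils by 0.76, 1.75 and 0.64, and those of monocytes by 0.61, 1.41 and 0.30. *Itgb2*, *Itgax* and *Itgam* are also expressed by such cells, whose part in the order of the mice was not tested. The erythroid markers were highest in mouse 1, with 1.03, -0.38 and -0.22. All *Fmo5*-/- values exceeded all WT values for each of the 6 macrophage groups, in which the WT mice ranged from -0.25 to 0.18.

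**Figure D3:**
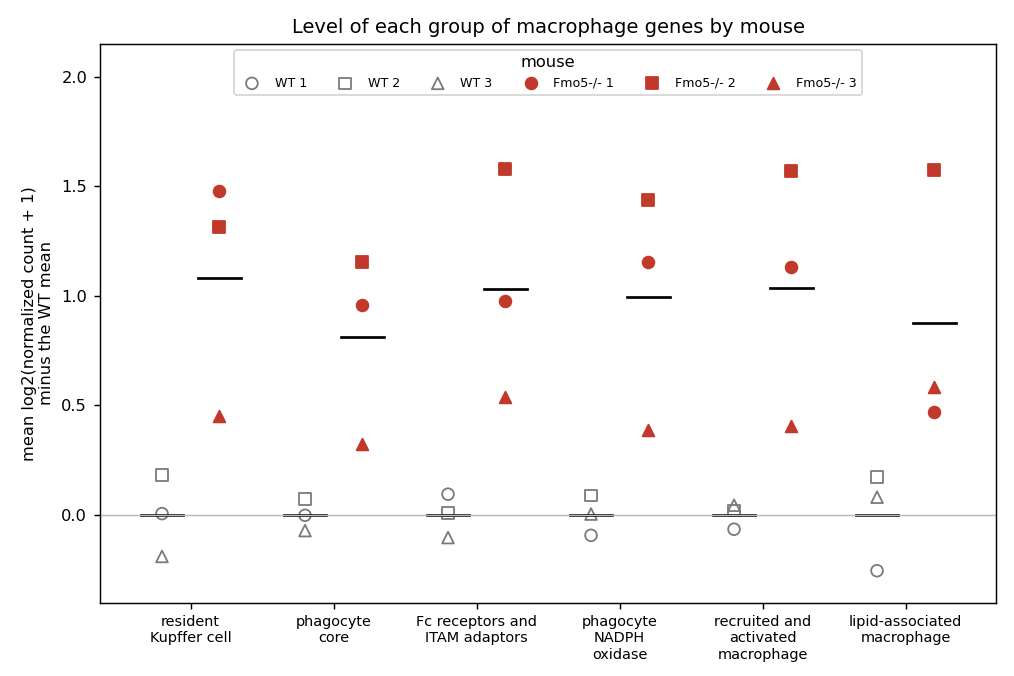
Mean log2(normalized count + 1) of each group of macrophage genes in each mouse, relative to the WT mean of the group (open grey symbols WT, filled red symbols *Fmo5*-/-, bars mean of 3 mice). The *Fmo5*-/- mice lie above the WT mice in all groups. Mouse 1 has the highest group mean for the resident genes (1.48) and mouse 2 for the others.

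The difference between a group and the resident genes of the same mouse changed less with genotype than the groups themselves. For the recruited and activated genes it was -2.79 ± 0.21 (SD, n = 3) in WT and -2.83 ± 0.30 in *Fmo5*-/- mice. For the lipid-associated genes it was -3.02 ± 0.27 in WT and -3.23 ± 0.70 in *Fmo5*-/- mice, with -4.03 in mouse 1 and -2.76 in mouse 2. For the core genes it was -0.15 ± 0.11 in WT and -0.42 ± 0.22 in *Fmo5*-/- mice. The values of the genotypes overlapped for the first 2 of these and not for the core genes, whose 3 *Fmo5*-/- values of -0.67, -0.31 and -0.28 lay below the lowest WT value of -0.26. Without *Mrc1* and *Msr1*, a choice made after their values were seen, the difference for the other 8 core genes was -0.29 ± 0.15 in WT and -0.39 ± 0.19 in *Fmo5*-/- mice, and the genotypes overlapped. No test was made, since the genes were chosen with results known.

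As RPKM, which is the read count scaled by exon length in kilobases and by library size, the levels of the 36 genes in WT liver spanned more than 3 orders of magnitude. *Lyz2* was the highest, with 34.5 ± 0.78 (SD, n = 3) RPKM, followed by *Clec4f* with 29.6 ± 3.05, *Cd5l* with 27.1 ± 4.17 and *Spp1* with 20.01 ± 7.32. *Lyz2* was above *Clec4f* in all WT mice, whereas the values of *Clec4f* and *Cd5l* overlapped. In *Fmo5*-/- liver *Cd5l* was the highest with 64.7 ± 19.1 RPKM, ahead of *Lyz2* with 59.4 ± 22.2 and *Clec4f* with 47.8 ± 5.23, and these 3 overlapped. The resident gene *Marco* had 7.02 ± 1.81 RPKM in WT and 33.2 ± 23.6 in *Fmo5*-/- liver. *Itgax*, *Trem2* and *Gpnmb* had low levels in WT liver, with 0.178, 0.0811 and 0.0191 RPKM. *Itgam* had 0.0732 RPKM, but this value divides by all its exon bases although reads in the 68.7% shared with another gene were not counted, so that its level is understated and its place in the order is not known. The levels of *Folr2*, *Lilrb4a*, *Spp1*, *Csf1r* and *Ncf1* may be understated in the same way, with 63.1%, 35.9%, 18.8%, 15.1% and 11.1% of their exon bases shared. Of the 35 pairs of neighbours in the WT order, 28 had overlapping values.

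Other genes tied to these cells, including signals of the Kupffer cell niche, were taken from 5 lists. Of 17 other Kupffer cell genes, 13 had a higher and 4 a lower mean (median log2 fold change 0.41), and 1 rose, with 9 higher and 1 lower at an unadjusted p under 0.05 and 8 higher and 0 lower by DESeq2. This was *Axl*, encoding a receptor for apoptotic cells, with 595, 679.6 and 553 counts in WT and 1344, 1593 and 918 in *Fmo5*-/- mice (log2 fold change 1.08, SE 0.19, edgeR adjusted p 0.0469). *Hpgd*, *Slc40a1*, *C6* and *Cd81*, the 4 with a lower mean, named here after their values were seen, are also expressed by other liver cells. Of 14 transcription factors of Kupffer cells, 8 had a higher and 6 a lower mean, and 2 rose, with 6 higher and 1 lower at an unadjusted p under 0.05 and 5 higher and 1 lower by DESeq2. *Maf*, encoding a transcription factor, had 1679, 1843 and 1542 counts in WT and 2553, 2524 and 2217 in *Fmo5*-/- mice (log2 fold change 0.53, SE 0.09, edgeR adjusted p 0.043). *Irf7*, encoding an interferon regulatory factor, had 1216, 1227 and 1442 counts in WT and 2213, 2280.0 and 2078 in *Fmo5*-/- mice (log2 fold change 0.76, SE 0.09, edgeR adjusted p 0.00871). For *Irf7* the *Fmo5*-/- mice were close to each other and mouse 3 was near the others. Which liver cells gave the reads of *Axl*, *Maf* and *Irf7*, or of *Hpgd*, *Slc40a1*, *C6* and *Cd81*, was not tested.

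Of 14 other genes of lipid-associated macrophages, 13 were tested, with 7 higher, 6 lower and a median of 0.06. Of these, 2 rose and 0 fell in the edgeR test, with 2 higher and 4 lower at an unadjusted p under 0.05 and 2 higher and 3 lower by DESeq2. The 3 called lower by DESeq2 alone, named after their values were seen, were *Cd36*, encoding a fatty acid transporter (log2 fold change -1.34, edgeR adjusted p 0.114), *Lipa*, encoding lysosomal acid lipase (-0.37, adjusted p 0.09), and *Plin2*, encoding a lipid droplet protein (-0.45, adjusted p 0.129). Hepatocytes also express these 3 genes. Which liver cells gave the reads of these 3 genes, or of the 2 that rose, was not tested. *Lpl*, encoding lipoprotein lipase, had 503, 513 and 505 counts in WT and 1131, 1411 and 788 in *Fmo5*-/- mice (log2 fold change 1.13, SE 0.19, edgeR adjusted p 0.043). *Atp6v0d2*, encoding a subunit of the proton pump of lysosomes in macrophages and osteoclasts, had 89.0, 89.3 and 100.2 counts in WT and 173, 169.8 and 154 in *Fmo5*-/- mice (log2 fold change 0.84, SE 0.16, edgeR adjusted p 0.0459). Of 10 signals of the Kupffer cell niche, 9 were tested, with 7 higher, 2 lower and a median of 0.34, and 0 passed the edgeR test, with 4 higher and 1 lower at an unadjusted p under 0.05 and 1 called in each direction by DESeq2. *Csf1*, encoding the ligand of the *Csf1r* product, came nearest, with 448, 527 and 410.0 counts in WT and 641, 726 and 589 in *Fmo5*-/- mice (log2 fold change 0.50, edgeR adjusted p 0.0749). *Csf2* had no read in any library. Of 14 cytokines and polarisation genes, 8 were tested, with 7 higher and 1 lower and a median of 1.26. In the edgeR test 0 of these passed, with 4 higher and 1 lower at an unadjusted p under 0.05. DESeq2 tested 9 genes of the list, *Ccl3* in addition, and called 5 higher, *Ccl3* among them, and 1 lower. *Cxcl10*, encoding a chemokine for T cells, had the smallest p, with 134, 128 and 122 counts in WT and 331, 539.7 and 199 in *Fmo5*-/- mice.

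Of the markers of other cells, those of leukocytes other than macrophages had medians from 0.31 for dendritic cells and 0.36 for B and plasma cells to 1.48 for T and NK cells. Apart from *Csf3r*, 0 genes of these lists passed the edgeR test, with 8 T and NK cell, 4 neutrophil, 3 monocyte, 1 B cell and 0 dendritic cell markers higher at an unadjusted p under 0.05, and 5, 2, 1, 1 and 0 called by DESeq2 (*Csf3r* included). *Gzma*, encoding a granzyme, had the smallest p of the T and NK cell markers, with 27.5, 16.7 and 23.5 counts in WT and 50.3, 105 and 57.9 in *Fmo5*-/- mice (edgeR adjusted p 0.0554). *Plac8* had the smallest p of the monocyte markers (log2 fold change 0.76, edgeR adjusted p 0.142), *Zbtb46* of those of dendritic cells (0.29, adjusted p 0.268) and *Igkc* of those of B and plasma cells (0.95, adjusted p 0.0778). The medians for cells that are not leukocytes were -0.06 for hepatocytes, -0.12 for sinusoidal endothelial cells, 0.03 for cholangiocytes and 0.11 for stellate cells, and 0.33 for erythroid cells, where *Fmo5*-/- mouse 1 was highest. In these lists 0 genes passed the edgeR test in either direction, and the smallest adjusted p values were those of *Hnf4a* (0.489), *Fcgr2b* (0.073), *Sox9* (0.419), *Des* (0.196) and *Alas2* (0.221). At an unadjusted p under 0.05 these 5 lists held 2 higher and 5 lower genes, and DESeq2 called 0 higher and 2 lower, both among the endothelial genes.

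**Figure D4:**
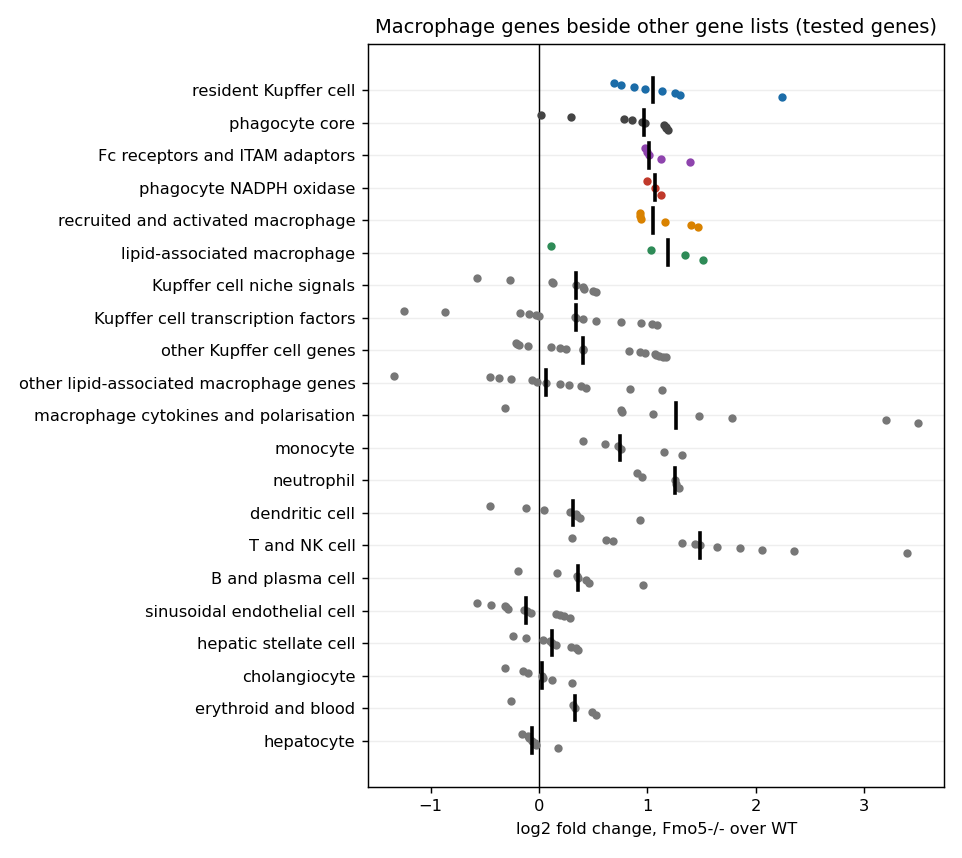
Log2 fold change, *Fmo5*-/- over WT, of the tested genes of each list (points) with the list's median (black bars), macrophage groups in colour and other lists in grey. The 6 macrophage groups have medians from 0.96 to 1.19, and the median of T and NK cell markers is 1.48. The medians for hepatocytes, endothelial cells, cholangiocytes and stellate cells lie around 0.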

How the data were processed

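RNA was measured in whole liver of 3 WT and 3 *Fmo5*-/- mice. The authors mapped single reads of 75 bases to mm10 with STAR 2.6.0c, and the deposited raw counts per gene, without regard to strand, were analysed here. The authors also deposited a table of normalized signal, the counts divided by 1 size factor per library, checked to a relative deviation of 5.49e-06, and its columns with their own comparison were not used. Of 67753857 to 75632821 reads per library, 66.2% to 69.2% were counted on genes, and reads on no gene, on several genes or at several places stayed out of all tests. The depth allows a gene without reads up to 3 counts, for counting error only.

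Genes were kept by filterByExpr (minimum count 10), scaled by TMM and compared between genotypes with the quasi-likelihood test of edgeR 4.0.16 in R 4.3.3, adjusted over 16734 genes. Normalized counts were scaled to the mean effective library size. DESeq2 1.42.0, other scalings and filters, reads of 1 strand and leaving out each library were alternatives, and the code was tested on simulated data. Each library is 1 mouse. The edgeR p-values set the difference between genotypes against the variation between mice, which was estimated with the help of all genes tested. An exact permutation test of 3 against 3 cannot go below 0.1 and was not used. Genes were matched by Ensembl identifier, positions and exon lengths came from GENCODE vM21, and *Csf1r* was matched without its version. The genes named are the 36, *Fmo5* and, of each other list, the genes that passed or else the one with the smallest p. Other genes named (markers listed at or near 0 or with overlap, a paralog, genes with a lower mean and those of the closing observations) were chosen after their values were seen. The 36 genes and all lists were chosen with earlier results of these data known.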

Additional observations from a re-analysis of the deposited data

How the results depend on the processing

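All 36 genes kept a higher mean in *Fmo5*-/- liver under RLE factors, under scaling without the 20 most abundant genes and with no filter on low counts. The exceptions elsewhere were *Mrc1*, with a log2 fold change of -0.0019 in DESeq2 and from -0.0546 to 0.0953 when single mice were left out, and *Spp1*, with -0.0629 to 0.456. The number of the 36 that passed depended on the settings. The count over all genes that passed as higher follows in brackets. It was 2 in the edgeR test as reported (113 of 16734) and 4 without the 20 most abundant genes in the scaling (139 of 16734). With reads of 1 strand it was 5 of 35 (127 of 16033). When only genes with a mean of 500 or more were fitted, it was 1 of 14 (30 of 7819). With no filter it was 28 (1093 of 34200), and in DESeq2 29 (739 of 15571). When single mice were left out, it ranged from 0 to 27 (16 to 606 over all genes). Both upper values were those without *Fmo5*-/- mouse 3. At a mean of 500 or more, 1 recruited gene, *Itgb2*, with a log2 fold change of 1.47, and 1 lipid-associated gene, *Spp1*, with 0.18, were left, so that no median of these groups could be had. The median of the lipid-associated genes ranged from 0.61 to 1.41 without single mice. Of the other lists, 6 genes were called higher and 0 lower by edgeR (43 higher and 12 lower at an unadjusted p under 0.05), against 30 and 7 in DESeq2, 33 and 7 with no filter, 2 and 0 at a mean of 500 or more, and 1 to 25 and 0 to 2 without single mice. Over all genes, edgeR called 113 higher and 116 lower, and DESeq2 739 and 656. These calls were 1093 and 896 with no filter and 30 and 23 at a mean of 500 or more. Without single mice they were 16 to 606 and 15 to 157. The cause of these differences was not tested. Genes with few reads, such as *Gpnmb*, *Trem2* and *Itgam*, are limited by depth.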

Other observations

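The genes of these paragraphs were picked from the lists after their values were seen. The 3 chains of complement C1q, which liver macrophages produce, were highest in *Fmo5*-/- mouse 2 and lowest in mouse 3 among the *Fmo5*-/- mice. *C1qa* had 1743, 1861 and 1577 counts in WT and 3935, 5003 and 2528 in *Fmo5*-/- mice. None of the chains overlapped between the genotypes. The edgeR adjusted p was 0.0677 for *C1qa*, with a log2 fold change of 1.15, and 0.071 and 0.0709 for *C1qb* and *C1qc*. *Spic*, encoding a transcription factor of red pulp and iron-handling macrophages, split the *Fmo5*-/- mice like *Marco* did, with 54.0, 54.7 and 68.5 counts in WT and 150.0, 149.6 and 65.8 in *Fmo5*-/- mice.

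*Id3*, encoding a factor needed by Kupffer cells and also expressed elsewhere in liver, split them the other way. It had 3308, 3182 and 2734 counts in WT and 757, 1112 and 3199.5 in *Fmo5*-/- mice, so that mouse 3, the lowest *Fmo5*-/- mouse for most macrophage genes, was within the WT range. *Id1* had 495, 270.0 and 383 counts in WT and 105, 197 and 183 in *Fmo5*-/- mice (log2 fold change -1.24, edgeR adjusted p 0.071, DESeq2 adjusted p 0.00014), without overlap. *Ccl5*, encoding a chemokine of T and NK cells and macrophages, had 41.3, 27.9 and 29.7 counts in WT and 154, 866 and 99.2 in *Fmo5*-/- mice, and *Cd8a* had 22.2, 7.81 and 14.3 in WT and 86.6, 321 and 61.9 in *Fmo5*-/- mice. Both were highest in mouse 2, which was also the highest *Fmo5*-/- mouse for 27 of the 36 macrophage genes.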
